A study of Drosophila melanogaster with 2 samples.

Results

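The Notch signalling pathway genes, N, Ser, Su(H), H, neur, mam, fng, kuz and bib, were examined for binding of the nuclear receptor Hr51 in Drosophila melanogaster embryos. They were chosen by name as pathway components, 9 of 13945 protein-coding genes on the main chromosome arms. A summit, the position of highest signal in a peak, was given to a gene when it lay in the gene body or within 1 kb of either end. By this rule 6 of the 9 members held 28 of the 7229 reproducible summits, and mam alone held 14. Ser, Su(H) and H held none.

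The study profiled Hr51 by chromatin immunoprecipitation and sequencing (ChIP-seq) in a single group of 2 samples, biological replicates 1 and 3, of whole embryos of mixed sex aged 14 to 16 h. All embryos carried a stable transgene for Hr51 with a C-terminal eGFP tag, in the strain that the labels call Dhr51-GFP, and the precipitation used an antibody against GFP. No untagged, mutant or other-stage embryos were analysed here, so no condition was contrasted with another and no p-value is given. Whole embryos mix every cell type, and a peak does not say in which cells the tagged protein was bound. Each replicate had its own list of 30000 peaks, a further list of 30000 was called on both replicates together, and the reproducible list of 7229 was kept from these by the irreproducible discovery rate (IDR) method. The signal of a peak is the authors' score, on a scale not given in the sources used here, and rank 1 is the highest signal of a list. Sequencing depth is unknown. The label that names Hr51 as the bound protein could not be checked from peaks at these genes.

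Notch signalling passes between touching cells. The ligands Delta and Serrate (Ser) on one cell bind the receptor Notch (N) on its neighbour, the metalloprotease Kuzbanian (kuz) and then the gamma-secretase complex cut the receptor, and the freed intracellular part enters the nucleus. There it joins the DNA-binding protein Suppressor of Hairless (Su(H)) and the coactivator Mastermind (mam), whereas Hairless (H) recruits corepressors to Su(H) when the pathway is off. Fringe (fng) is a glycosyltransferase that alters the sugars of Notch and so its choice of ligand, Neuralized (neur) is a ubiquitin ligase that drives endocytosis of the ligand in the sending cell, and Big brain (bib) is a membrane channel protein of the aquaporin family. In the fly embryo the pathway is known for limiting how many cells of the neurogenic ectoderm become neuroblasts.

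The DNA under the strongest summits of N, neur, kuz and bib is shown because these summits carry results below. The strongest summits of mam and fng do so too, but their windows are not reported here. The other summits of neur and bib were added after their values were seen. The reason was that the neur pair had nearly the same signal and the bib pair shared a peak. Each window runs from 50 bp before to 50 bp after the summit and is read 5′ to 3′ along the strand of its gene, from the NCBI RefSeq copy of the Release 6 (dm6) genome. Capitals mark a match, on either strand, to AAGTCA, a core word bound by the NR2E group of nuclear receptors to which Hr51 belongs. A window with no capitals held no match to this or to the other motifs searched, apart from the E-box.
N, chrX:3162483-3162583: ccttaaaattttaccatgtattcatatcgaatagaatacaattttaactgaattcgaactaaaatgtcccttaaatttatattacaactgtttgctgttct
neur, chr3R:9031973-9032073, minus strand: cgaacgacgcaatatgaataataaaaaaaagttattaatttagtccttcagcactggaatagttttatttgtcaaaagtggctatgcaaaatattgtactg
neur, chr3R:9033928-9034028, minus strand: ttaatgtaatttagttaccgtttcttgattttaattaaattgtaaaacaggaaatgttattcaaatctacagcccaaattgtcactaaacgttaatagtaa
kuz, chr2L:13571142-13571242: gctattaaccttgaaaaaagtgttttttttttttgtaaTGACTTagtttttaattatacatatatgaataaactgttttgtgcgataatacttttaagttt
bib, chr2L:9984313-9984413: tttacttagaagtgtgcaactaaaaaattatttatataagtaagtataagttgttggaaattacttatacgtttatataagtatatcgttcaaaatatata
bib, chr2L:9984512-9984612: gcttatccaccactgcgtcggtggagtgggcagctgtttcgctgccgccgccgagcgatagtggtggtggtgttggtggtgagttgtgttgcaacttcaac
Most of these windows were rich in A and T. GC content was 25.7% at N, 29.7% and 24.8% at neur and 20.8% at kuz. The pair at bib differed most, with 19.8% GC at the stronger summit and 59.4% at the weaker. Over all 28 summits of the pathway genes the median GC content was 26.7% (range 12.9 to 59.4%), against 29.7% over the 7229 reproducible summits.

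The receptor, the protease, the glycosyltransferase, the ubiquitin ligase, bib and the coactivator each had at least 2 reproducible summits. The ligand Ser, the DNA-binding protein Su(H) and its antagonist H had none. Of 9 members, 6 had a summit, beside 30.4% of all protein-coding genes. Long genes offer more room, and the share with a summit was 22.1% for genes under 5 kb, 47.3% from 5 to 20 kb, 72.9% from 20 to 50 kb and 80.8% over 50 kb. Su(H) fell in the shortest class. H, neur and bib were of 5 to 20 kb, and neur and bib had summits. N, Ser and fng were of 20 to 50 kb, and N and fng had summits. Both members over 50 kb, mam and kuz, had summits. Against these shares by length, 6 of 9 does not set the members apart. The same 6 of 9 members had a summit within 1 kb of a start site of their own, beside 3247 of 13945 protein-coding genes (23.3%). Of the 4239 protein-coding genes with any summit by the main rule, those 3247 had one near a start site. This share was not split by gene length.

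**Figure D1:**
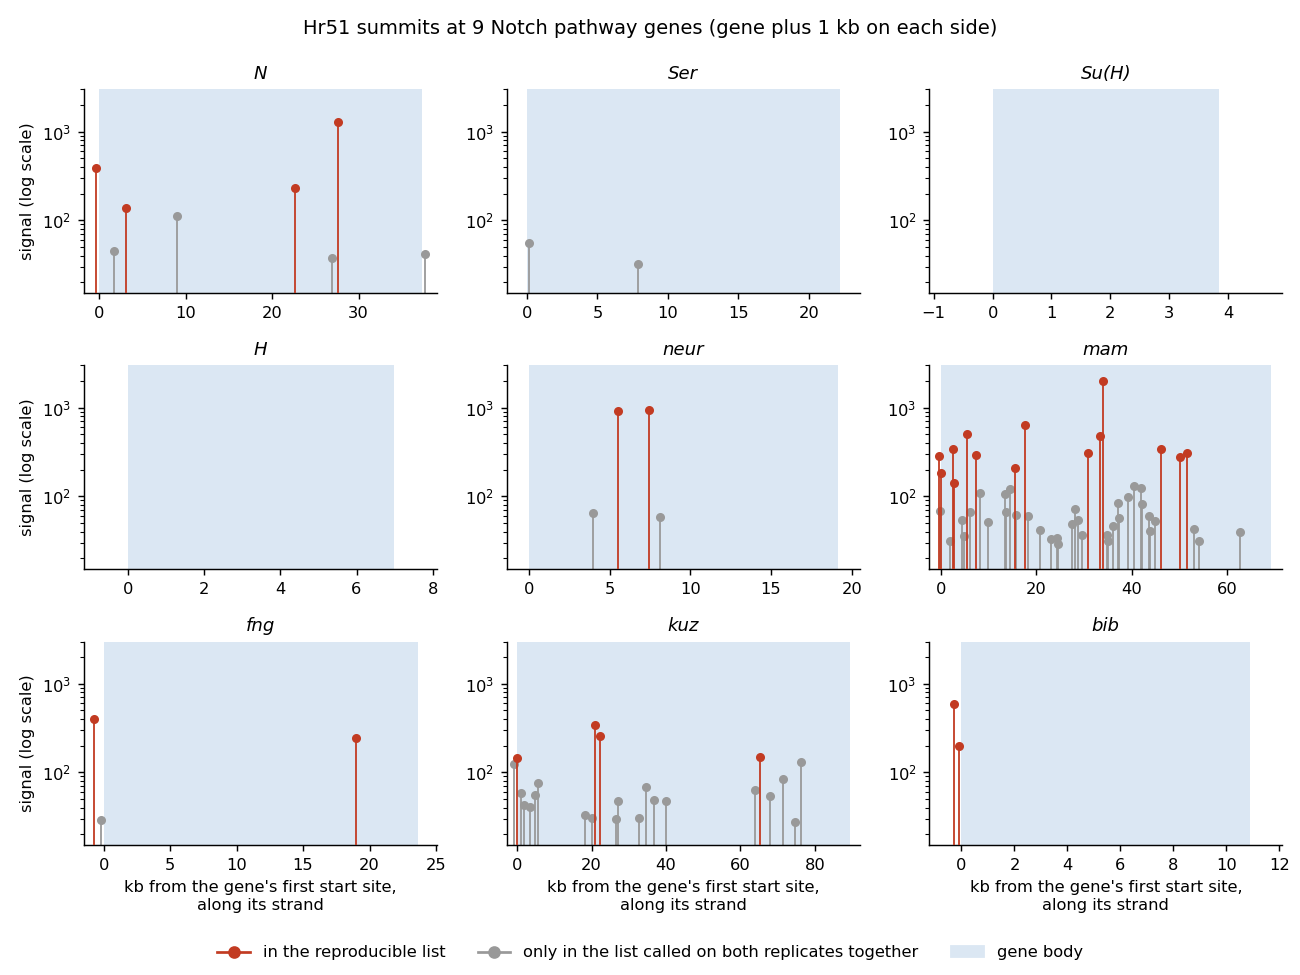
Signal of each summit (log scale) against its distance in kb from the most upstream start site of the gene, along the gene's strand, for the 9 pathway genes with 1 kb on each side. Red points are reproducible summits, grey points were only in the list called on both replicates together, and shading marks the gene body; mam holds 14 red points, and the panels of Su(H) and H are empty.

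The receptor gene N (FBgn0004647, chrX:3134870-3172221, plus strand) had 4 reproducible summits, the strongest deep in the gene. That peak (chrX:3162340-3162751) had a signal of 1290.7 and ranked 368 of 7229, with its summit in intron 5, 27663 bp downstream of the start site. Its match had a signal of 571 and rank 368 in replicate 1, and a signal of 723 and rank 392 in replicate 3. The replicates therefore gave it nearly the same place among their 30000 peaks. The next was a peak of signal 387 (chrX:3134369-3134637, rank 2407) whose summit lay 358 bp upstream of the start site of N, inside the 3′ end of kirre, the neighbouring gene for a myoblast cell adhesion protein. Replicate 1 placed this upstream peak at 2107, with a signal of 197, and replicate 3 at 2800, with a signal of 194. The other summits were weaker, with a signal of 234 in intron 4 and of 139 in intron 1. The weakest was also the least even, at rank 5454 in replicate 1 and 10205 in replicate 3. Of the 706 protein-coding genes of 20 to 50 kb, 25.8% had 4 or more summits, so the number at N was not unusual for its length.

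Neither ligand gene had a reproducible summit. Ser (FBgn0004197, chr3R:27172090-27194267, minus strand) had its nearest one 18361 bp away, with a signal of 349. The list called on both replicates together had 2 peaks at Ser, of signal 55.7 and 31.7, the stronger at rank 16321 of 30000. Replicate 3 had 5 peaks there, with ranks of 13430 and beyond, and replicate 1 had 0. The peaks at Ser were thus weak and seen in a single replicate. Delta, the other ligand gene, of 23.5 kb, was 41540 bp from the nearest reproducible summit, with 2 peaks in each replicate list and 0 in the list called on both together.

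The gene for the ubiquitin ligase, neur (FBgn0002932, chr3R:9020348-9039471, minus strand), had a pair of strong summits around its internal start site. The first (chr3R:9031855-9032182, signal 931, rank 674) lay 1708 bp downstream of that site, and the second (chr3R:9033767-9034189, signal 916, rank 698) lay 247 bp upstream of it. Both were in intron 1 of the longer transcripts, and their summits were 1955 bp apart. The first had a signal of 412 and rank 674 in replicate 1, and a signal of 510 and rank 721 in replicate 3. The second had a signal of 489.6 and rank 495 in replicate 1, and a signal of 428 and rank 973 in replicate 3. The order of the pair thus differed between the replicates, and their signals cannot be ranked against each other. Both were among the highest 722 peaks (9.99%) of the reproducible list, as were 4 of the 28 pathway summits in all (14.3%), the other two being the strongest of mam and of N. No reproducible summit lay within 1 kb of the upstream start site of neur. From the 7229 highest peaks of a single replicate, neur had 3 summits in replicate 1 and 4 in replicate 3.

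The glycosyltransferase gene fng (FBgn0011591, chr3L:20925891-20949512, minus strand) had 2 summits, upstream of its start and deep in the gene body. The upstream peak (chr3L:20950113-20950425, signal 398, rank 2319) had its summit 733 bp upstream of the start site, and the start site of lncRNA:CR45243 also lay within 1 kb. It was higher in replicate 3 (signal 279.6, rank 1783) than in replicate 1 (signal 119, rank 4065). The other (chr3L:20930451-20930652, signal 247, rank 3957) was in intron 4, at rank 4748 in replicate 1 and 3975 in replicate 3. The fng peaks were thus of middling signal, and the upstream one differed most between replicates. The 733 bp at fng was the farthest that any of the 28 summits lay outside its gene. Just beyond the bound of 1 kb were a summit 1396 bp upstream of fng (signal 170.5), another 1695 bp upstream of kuz inside B4 (signal 213), and 2 more downstream of fng, at 2511 and 3916 bp (signals 215 and 174).

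The protease gene kuz (FBgn0259984, chr2L:13550139-13639411, plus strand) was the longest member, at 89.3 kb, and had 4 modest summits. The strongest (chr2L:13571120-13571328, signal 339.9, rank 2795) lay in intron 3, 21053 bp from the start site, and its window holds the AAGTCA match printed above, 12 bp before the summit. Its neighbour 1105 bp farther into the gene had a signal of 256. Replicate 1 placed the stronger at 2398 and the weaker at 6361, and replicate 3 placed them at 3355 and 3524. The gap between the pair was thus wide in replicate 1 and narrow in replicate 3. A further summit, in intron 5 at 65267 bp, had a signal of 148. The promoter summit (chr2L:13549864-13550273), 70 bp upstream, had a signal of only 146 and rank 6730, near the bottom of the reproducible list, and the start site of B4 lay within 1 kb. The kuz gene had 0.438 summits per 10 kb, close to the 0.444 of genes over 50 kb as a class, of which 45.6% had 4 or more summits.

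The gene bib (FBgn0000180, chr2L:9984645-9995538, plus strand) had reproducible summits only upstream of its start. Its 2 summits, 199 bp apart, shared the interval chr2L:9984166-9984567 and overlapped lncRNA:CR13130, a noncoding gene on the opposite strand whose own start site lay within 1 kb. The stronger, 282 bp upstream of the start site of bib, had a signal of 588 and rank 1395, and the weaker, 83 bp upstream, had 199 and rank 4956. Replicate 1 also resolved both, with signals of 329 and 150.2. Replicate 3 had a single peak there, of signal 261 and rank 1951, whose summit was 16 bp from the stronger. The second summit therefore rests on replicate 1 and on the call over both replicates, and without replicate 1 bib had 1 summit.

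The coactivator gene mam (FBgn0002643, chr2R:13991203-14060356, plus strand) stood apart from the other members in number of summits. Its 14 summits gave 1.97 per 10 kb, against 0.444 for genes over 50 kb and 0.654 for all protein-coding genes. Only 16 of 13945 genes had 14 or more, all 16 of them over 50 kb, which is 5.21% of the 307 genes in that class. The list of 16 was led by kirre (34 summits over 394 kb), and the closest in length to mam was Tlk (14 summits over 69.8 kb). Some of the 16 were shorter than mam and held more summits, among them shn (18 over 58.3 kb) and rdx (18 over 65.0 kb), and others were longer. Without mam the other 8 members held 14 summits in 229 kb, or 0.611 per 10 kb, slightly below the rate over all genes. That rate is not matched for length. By class it was 0.697 under 5 kb, 0.769 from 5 to 20 kb, 0.711 from 20 to 50 kb and 0.444 over 50 kb. The longest of the 8, kuz, was in the last class, so 0.611 does not set them below genes of their lengths.

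**Figure D2:**
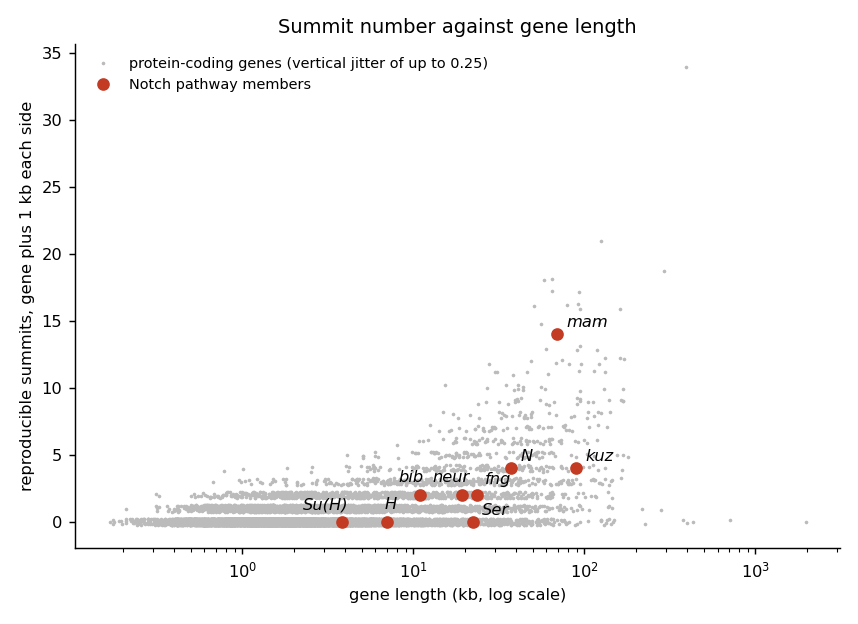
Number of reproducible summits in each of 13945 protein-coding genes with 1 kb on each side, against gene length in kb on a log scale. Grey points are genes, with small vertical offsets to separate them, and red points are the 9 pathway genes; mam, at 69.2 kb and 14 summits, lies well above the other red points.

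The summits of mam fell into groups along the gene rather than at its start sites alone. The strongest summit of the pathway (chr2R:14024909-14025371, signal 1987.3, rank 148) was intronic, 6512 bp upstream of the third start site, and a second summit of signal 475 lay 669 bp from it. It had a signal of 859 and rank 151 in replicate 1, and a signal of 1135.5 and rank 155 in replicate 3. Next came a peak (chr2R:14008714-14009059, signal 642, rank 1235) with its summit 306 bp upstream of the second start site, at rank 1219 in replicate 1 and 1263 in replicate 3. Both replicates therefore placed the leading peaks of mam alike. At the first start site a summit lay 370 bp upstream (signal 284), beside a start site of RN-tre, and another 181 bp downstream in the 5′ UTR (signal 183). From 2610 to 7382 bp downstream 4 intronic summits followed, with signals from 142 to 506. A further summit at 15504 bp, within 1 kb of mir-4978, had a signal of 208, and another at 30853 bp had a signal of 306. The last 3, from 46132 to 51532 bp, had signals of 341, 275 and 312. No reproducible summit lay within 1 kb of the third start site.

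One mam summit was far from even between the replicates. The peak at chr2R:14041124-14041309 (signal 275, rank 3551) matched a peak of rank 1543 in replicate 1 and of rank 24745 in replicate 3. Its window had a GC content of 55.4% and 11 overlapping matches to GAGAG. The summit at 2610 bp (signal 339) overlapped no peak of replicate 1 and a peak of rank 2834 in replicate 3, and its neighbour at 2815 bp (signal 142) ranked 3121 and 8116. All 3 lay in introns of mam.

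Neither the DNA-binding protein of the pathway nor its antagonist had a peak of any kind at its gene. Su(H) (FBgn0004837, chr2L:15039488-15043334, plus strand) and H (FBgn0001169, chr3R:20621938-20628915, plus strand) had 0 peaks in the reproducible list, in the list called on both replicates together and in each replicate list. The nearest reproducible summit was 13528 bp from Su(H), with a signal of 674, and 27228 bp from H, with a signal of 521. Most genes of these lengths had no summit either, as the shares above show. A list of the highest peaks cannot show that binding was absent.

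Of the 28 summits, 21 (75.0%) were in introns of the member gene, 6 were upstream of it and 1 was in a 5′ UTR. The intron share over all 8116 pairs of a protein-coding gene and a summit was 51.6%. It was not split by gene length, and 10461 of the 13945 protein-coding genes were under 5 kb. Introns of mam held 12 of the 21, and without mam the share was 9 of 14 (64.3%). Within 1 kb of a start site of the same gene there were 9, of which 8 were upstream of the site. Counting start sites of any gene, 10 of 28 (35.7%) were within 1 kb, against 46.5% of all reproducible summits, and without mam it was 6 of 14 (42.9%). The median signal was 309, against 270.1 for the whole list, and 18 of 28 (64.3%) were among its stronger 3614 peaks. Of those 18, mam supplied 11, and without mam 7 of 14 were in the stronger peaks, with a median signal of 298. These are descriptions of genes that differ in length and share neighbouring summits, with no test.

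The replicates supported nearly all of these summits, although the reproducible list was drawn from the same replicates and so favours this. A peak of each replicate overlapped 27 of 28 (96.4%), against 97.3% of the whole list, and the exception was the mam summit that replicate 1 lacked. Across those 27 the higher rank number was a median of 1.21 times the lower, against 1.29 over 7036 matched summits. It was at most 2 times for 24 of 27 (88.9%), against 90.1%. The 3 beyond were the mam summits at 50019 and 2815 bp and the upstream summit of fng. At the strongest summits of mam and N the replicates gave nearly equal ranks, as reported above. When the summits themselves had to lie within 100 bp, 25 of 28 matched in both replicates. The weaker bib summit was then lost, 183 bp from its match in replicate 3. So was the mam summit at 15504 bp, 257 bp from its match in replicate 1.

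**Figure D3:**
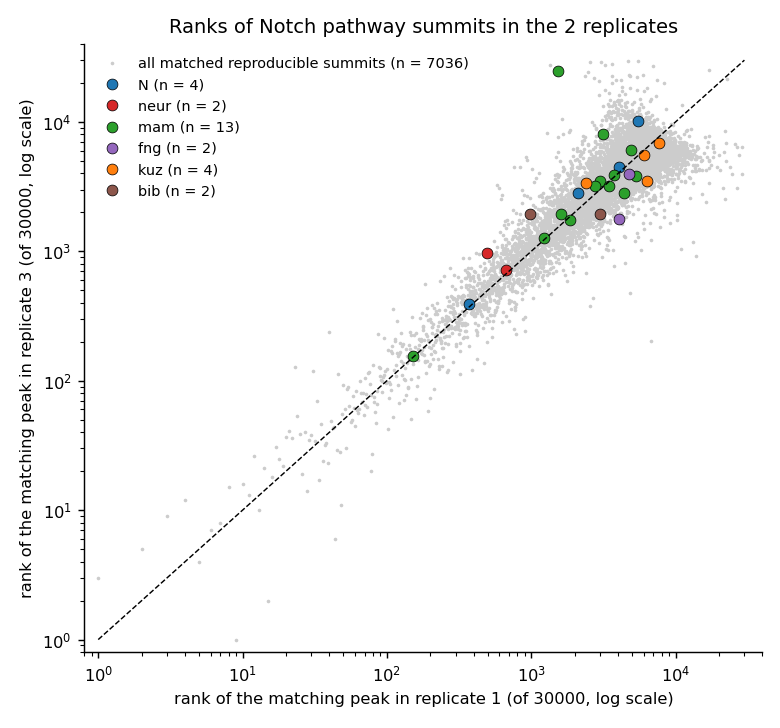
Rank of the matching peak in replicate 3 against that in replicate 1, both of 30000 and on log scales, with the line of equal ranks dashed. Coloured points are the 27 summits of Notch pathway genes matched in both replicates and grey points all 7036 matched reproducible summits; the green point far above the line is the mam summit at ranks 1543 and 24745.

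The letters of known binding sites were counted in the summit windows. With 50 bp on each side of the summit, AAGTCA was in 3 of 28 windows (10.7%, 95% exact interval 2.27 to 28.2%), at 2 mam summits and 1 kuz summit, against 5.92% of all 7229. One of these was the strongest mam summit, where the match began 2 bp after the summit. GAGAG, the letters bound by the GAGA factor, was in 6 of 28 (21.4%, 8.30 to 41.0%), at 4 mam summits and 2 others, against 8.30%. With 100 bp on each side the shares with GAGAG were closer, 28.6% against 19.3%. So were those with AAGTCA, 14.3% against 11.2%. The Su(H) sites GTGGGAA and GTGAGAA were in 0 of 28 windows, which with 0.692% and 0.927% over the whole list is too few windows to see a difference. The E-box CANNTG, the site of basic helix-loop-helix proteins, was in 9 of 28 (32.1%, 15.9 to 52.4%), against 31.3%. Those 9 were all 4 windows at N, 3 of the 14 at mam, and 1 each at fng and bib. The GATA words TTATCA and AGATAA were in 2 and 4 of 28 (7.14% and 14.3%), against 10.1% and 8.96%. With 100 bp on each side they were in 7.14% and 28.6%, against 18.3% and 15.5%. CAGGTAG, bound by Zelda, and TATCGATA, bound by DREF, were in 0 of 28, against 0.290% and 0.678%. Both strands were searched, and overlapping matches were counted once per window. All intervals cover counting error only, and windows of the same gene are not independent.

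Of 37 other genes of the pathway, 16 had a reproducible summit, beside 30.4% of all protein-coding genes. The list holds mostly short genes, with 26 under 5 kb, of which 10 had a summit, beside 22.1% of all genes of that length. The highest signal was at l(2)gd1 (1697.4, summit 123 bp upstream, beside Reps), which encodes a protein of Notch endosomal trafficking. Next were E(spl)m3-HLH (1696.5, 423 bp upstream), a repressor gene that Notch activates, and numb (1651.3, 230 bp upstream of an internal start site), which encodes a Notch inhibitor inherited by 1 daughter of a dividing cell. They were followed by aph-1 (1283.1, 417 bp upstream), for a subunit of gamma-secretase, gro (1224.1, 146 bp upstream of an internal start site), for the corepressor Groucho, and rumi (906, 94 bp upstream), for a Notch glucosyltransferase. Each of these 6 ranked among the highest 732 peaks of both replicates. As at l(2)gd1, start sites of other genes lay within 1 kb of some of these summits. They were lncRNA:CR43644 at E(spl)m3-HLH, Snx21 at aph-1, and CG7029 and Usp12-46 at rumi. The strongest mam summit, at 1987.3, exceeded them all, and that of N, at 1290.7, was close to that of aph-1.

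Among the targets of the pathway, some genes had a summit and some had none. Of the 11 E(spl) complex genes listed, all under 5 kb (22.1% of such genes had a summit), 5 had one, namely E(spl)m3-HLH, E(spl)m2-BFM (677), E(spl)m7-HLH (480.4), E(spl)mdelta-HLH (434) and E(spl)m8-HLH (285). The E(spl)m8-HLH summit lay downstream of that gene and upstream of gro, which counts it too. The E(spl)mdelta-HLH summit was also within 1 kb of a start site of CG43116. Of the gamma-secretase genes aph-1 had 2 summits, the stronger shared with Snx21 as described above, and Psn, Nct and pen-2 had 0. The glycosylation genes rumi and O-fut1 had 1 each, and that of O-fut1 was also within 1 kb of a start site of CysRS-m. The corepressor genes gro and CtBP had 2 each, whereas H, whose protein brings both corepressors to Su(H), had 0.

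**Figure D4:**
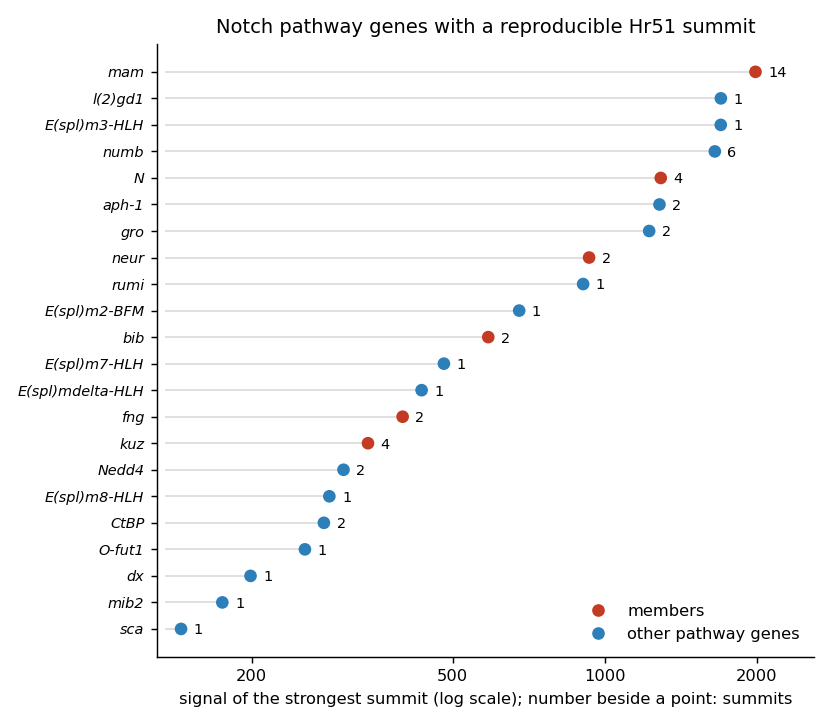
Signal of the strongest reproducible summit (log scale) for the 22 Notch pathway genes that have at least 1 summit, 6 members in red and 16 other genes in blue, with the number of summits beside each point. The strongest summit of mam (1987.3) leads, followed by those of l(2)gd1, E(spl)m3-HLH and numb.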

How the data were processed

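Peaks were called by the authors for each replicate and for both replicates together, against a control alignment, and kept by an IDR procedure, per the labels and the lists of deposited files. The sources used here do not name the aligner, the peak caller or its settings. Chromatin was sonicated to 200 to 800 bp, per the labels. The deposited signal column is a score per peak of unstated scale, and was used only to rank and describe peaks within a list. Coordinates are dm6, per the labels, and are given counting from 1.

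Gene models came from Ensembl release 115, which uses the same assembly, with transposable elements left out. Peaks were matched across lists by an overlap of at least 1 bp, taking the nearest summit. Sequences of 6 of the 28 summit windows are printed, and the others are not reported here. Motifs were searched as exact letters within 50 bp of each summit. Both samples were used in 1 group, and no test was planned or run. Named genes were all 9 members, their neighbours with a start site within 1 kb, genes that overlap a member summit, and the 6 other pathway genes of highest signal. Genes named beside summits of the other pathway genes had a start site within 1 kb of the summit. Other genes named (Delta, the remaining E(spl), gamma-secretase, glycosylation and corepressor genes, Tlk, shn and rdx) were chosen after their values were seen. Members and lists were chosen by name and role, but with earlier results of these data known. In all, 3 symbols of the list of 37 were matched through RefSeq synonyms. The code for assigning and matching peaks was checked on made-up genes and peaks. Computation used Python 3.11.15, pandas 2.3.3, NumPy 2.4.6 and SciPy 1.17.1.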

Additional observations from a re-analysis of the deposited data

How the results depend on the processing

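The number of members with a summit stayed between 5 and 7 under the 7 alternatives tried. It was 5 with the gene body only, which drops bib (14.6% of protein-coding genes then had a summit), and 7 with all peaks called on both replicates together, which adds Ser (44.9%). The 28 summits became 9 when only those within 1 kb of a start site counted, 18 in the stronger 3614 peaks and 91 with all peaks called on both replicates together. From a single replicate, cut to its 7229 highest peaks, the number ran from 27 to 30, with 6 members each time. Without replicate 1 it was 4 at neur and 1 at bib, and without replicate 3 it was 3 at neur, against 2 each. The median signal was 288 with 5 kb on each side, against 309. Matches in both replicates fell from 27 to 16 when at least 50% of both intervals had to overlap; the cause was not tested. Depth was unknown, so no error could be given for a single peak. No paired analysis was possible because there was 1 group and no contrast.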

Other observations

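At the upstream start site of neur, a peak stood in each replicate list but in neither of the lists made from both. Its summit lay 606 bp downstream of that start site in replicate 1 (chr3R:9038647-9039082, signal 91.0, rank 5593) and 622 bp downstream in replicate 3 (chr3R:9038659-9039038, signal 77.4, rank 7096). A second peak of replicate 3, 129 bp upstream of the start site, had a signal of 104 and rank 5355, and its match in replicate 1 had rank 13485. No peak of the list called on both replicates together overlapped any of these, although that list also holds 30000 peaks. At mam, 2 peaks of replicate 1 (ranks 6022 and 6327) and, at kuz, 1 peak of replicate 3 (rank 6383) were likewise outside the reproducible list, but these had matches at ranks 7461, 7820 and 7907 in the list called on both replicates together. Delta also had 2 peaks in each replicate list and 0 in the list called on both together. Whether the Delta peaks matched between the replicates was not examined, so the gap cannot be called particular to neur. The reason for the gap at neur was not tested.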
